A study of Mus musculus with 6 samples.

Results

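The serotonin receptors that couple to inhibitory Gi/o proteins or to Gq were followed in RNA from mouse cerebral cortex. They are the 8 genes Htr1a, Htr1b, Htr1d, Htr1f, Htr2a, Htr2c, Htr5a and Htr5b, taken by symbol from the 32531 gene rows of the count files, whatever their level. All mice were adults of the Htr4-EGFP/Rpl10a line ES1299, untreated, in which a fusion of EGFP and the ribosomal protein Rpl10a is made under the control of Htr4, a Gs-coupled serotonin receptor gene. In translating ribosome affinity purification (TRAP), tagged ribosomes are captured from homogenised tissue with antibodies to EGFP, so that the RNA on them comes from the cells that make the tag. The capture (IP, n = 3 libraries) was compared with the whole cortical RNA labelled input (n = 3 libraries). Both groups carried the same transgene. The series title names pyramidal neurons as its subject, but the tag follows the Htr4 transgene of 1 line and is not limited to pyramidal neurons by design. The labels do not say whether the replicates were separate animals or pools, so the p-values measure the spread between these libraries, which may be technical.

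Serotonin reaches the cortex through axons of the raphe nuclei. Receptors of the Htr1 family lower cyclic AMP through Gi/o proteins, and the released beta and gamma subunits open GIRK potassium channels, which quiets the cell. Htr2a and Htr2c act through Gq and phospholipase C, which releases calcium from stores and activates protein kinase C. Htr5a also couples to Gi/o, whereas the coupling of Htr5b, which is intact in rodents, is less well known. A level of IP above input means that a transcript made up more of the captured RNA than of the whole tissue RNA. In such bulk RNA, more cells with a transcript and more transcript per cell cannot be told apart. The IP held RNA on ribosomes and the input whole RNA, so a larger share of a transcript on ribosomes cannot be told apart from these either.

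The transcript of Htr2c is known to be edited: enzymes of the ADAR family change up to 5 neighbouring adenosines to inosine, which alters the second intracellular loop of the receptor and weakens its coupling to Gq. The stretch is shown because the counts below pool edited and unedited transcripts. It lies in exon 5 of 6 of the Htr2c-201 transcript, at chrX:147169668-147169721 on the plus strand (GENCODE M21, GRCm38), and the 5 adenosines are in capitals.
Htr2c edited stretch: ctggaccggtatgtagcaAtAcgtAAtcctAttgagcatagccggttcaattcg

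The windows around the transcription starts of Htr2c, Htr1a and Htr2a, 250 bases before to 50 after the start, are shown because these well-counted receptors passed the test below in opposite directions. They come from RefSeq (GRCm38.p6), where 7 of the 8 receptors, all but Htr5b, were matched. Htr2c lies at chrX:146962263-146962562, Htr1a at chr13:105443443-105443742 and Htr2a at chr14:74640624-74640923, all on the plus strand. Capitals mark matches, on either strand, to the TATA box letters TATAAA, to the CCAAT box, to the GC box letters GGGCGG and to the cAMP response element TGACGTCA.
Htr2c: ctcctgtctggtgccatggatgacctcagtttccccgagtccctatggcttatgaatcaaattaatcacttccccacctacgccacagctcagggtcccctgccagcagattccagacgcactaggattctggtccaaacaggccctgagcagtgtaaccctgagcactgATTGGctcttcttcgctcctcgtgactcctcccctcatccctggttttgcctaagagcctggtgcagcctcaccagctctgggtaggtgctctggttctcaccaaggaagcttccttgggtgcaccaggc
Htr1a: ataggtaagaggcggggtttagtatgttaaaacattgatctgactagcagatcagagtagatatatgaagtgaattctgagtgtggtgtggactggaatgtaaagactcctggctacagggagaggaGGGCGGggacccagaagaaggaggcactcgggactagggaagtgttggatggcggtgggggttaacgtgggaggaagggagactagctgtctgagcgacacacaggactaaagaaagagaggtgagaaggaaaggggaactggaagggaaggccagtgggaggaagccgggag
Htr2a: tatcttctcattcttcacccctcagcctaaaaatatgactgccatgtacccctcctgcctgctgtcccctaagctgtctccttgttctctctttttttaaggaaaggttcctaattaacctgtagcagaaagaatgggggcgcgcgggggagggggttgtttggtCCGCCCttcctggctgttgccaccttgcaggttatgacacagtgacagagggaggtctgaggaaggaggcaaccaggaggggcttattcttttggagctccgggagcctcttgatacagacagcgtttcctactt
The Htr2c window held 1 CCAAT match, on the minus strand. The Htr1a and Htr2a windows each held 1 GC box match, on the plus strand in Htr1a and on the minus strand in Htr2a. Among all 32851 RefSeq windows of this length, 37.4% held the CCAAT letters, 35.7% the GC box, 13.6% the TATA letters and 1.79% the cAMP response element. The GC content was 56.3% for Htr2c, 52.3% for Htr1a and 52.0% for Htr2a, against a median of 52.7% over all windows. The number of CG dinucleotides was 5, 7 and 6, against a median of 7.

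The 6 libraries held 37696125 to 67559533 reads on genes, which puts the level of 3 reads at 0.0430 to 0.0817 CPM (reads scaled to a common library total, with TMM, the trimmed mean of M values). Glial and vascular markers were depleted in IP, with all 5 astrocyte, all 5 oligodendrocyte, all 5 microglial and all 3 tested endothelial genes lower. Of 5 markers of cortical excitatory neurons, 1 was higher and 0 lower, and their summed level was 3611 to 4145 CPM in input and 3868 to 5325 in IP, led by Camk2a and Slc17a7. Markers listed for striatal and hippocampal neurons were also present. Of 12 striatal markers 11 were higher and 1, Rgs9, was lower (517 to 610 CPM summed in input, 1314 to 1782 in IP). Of 7 hippocampal markers 3 were higher, 0 lower and 4 not called (34.6 to 57.7 and 79.1 to 258 CPM, mostly Prox1). Of 4 tested habenula and thalamus markers 0 were higher and 1 was lower. Whether the RNA of these markers came from tissue outside the cortex was not tested. Among 7 markers of GABAergic interneurons, 3 were higher (Vip, Sst and Slc32a1), 0 lower and 4 not called. Their summed level was 967 to 1091 CPM in input and 1169 to 1709 CPM in IP. The markers of layer 5 pyramidal tract (3 of 3), near-projecting (2 of 2) and layer 6 corticothalamic neurons (3 of 3) were higher. Of 3 layer 6b markers 0 were higher and 1 was lower, with sums of 19.4 to 26.8 CPM in input and 8.09 to 15.97 CPM in IP. Markers of layer 4 (2 of 2) and of layer 2/3 (2 of 3) were lower. Reads outside genes and reads matching several genes also differed between the groups, at 17.2% ± 0.722 and 8.99% ± 0.856 of listed reads in input and 8.78% ± 0.162 and 1.82% ± 0.0772 in IP (SD, n = 3). The inputs shared a single library index and so did the IPs, which means that effects of index and of capture cannot be told apart.

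Of the 8 receptors, 5 were higher in IP (Htr1a, Htr1b, Htr1d, Htr2c and Htr5b), 1 was lower (Htr2a) and 2 did not pass the test (Htr1f and Htr5a). All 8 passed the filter on low counts. The IP libraries were all above the inputs for the 5 receptors that rose, as for 26.5% of all tested genes, and all below for Htr2a, as for 29.5%, or 56.1% either way. The test was edgeR's quasi-likelihood test over all 16506 tested genes, two-sided, with p adjusted by Benjamini-Hochberg and called under 0.05, and by it 21.3% of all tested genes were higher in IP, 23.4% lower and 44.8% either. The median log2 fold change (IP over input) was 0.88 over the 8 receptors and -0.02 over all tested genes. The calls of Htr1b and Htr1d were marginal, and 3 receptors in place of 5 were called higher with a stricter filter on low counts or without input replicate 2, input replicate 3 or IP replicate 2. The calls of Htr1a, Htr2a, Htr2c and Htr5b held under all 13 alternatives, which comprised other tools, scalings and filters, a replicate block and the omission of each library.

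**Figure D1:**
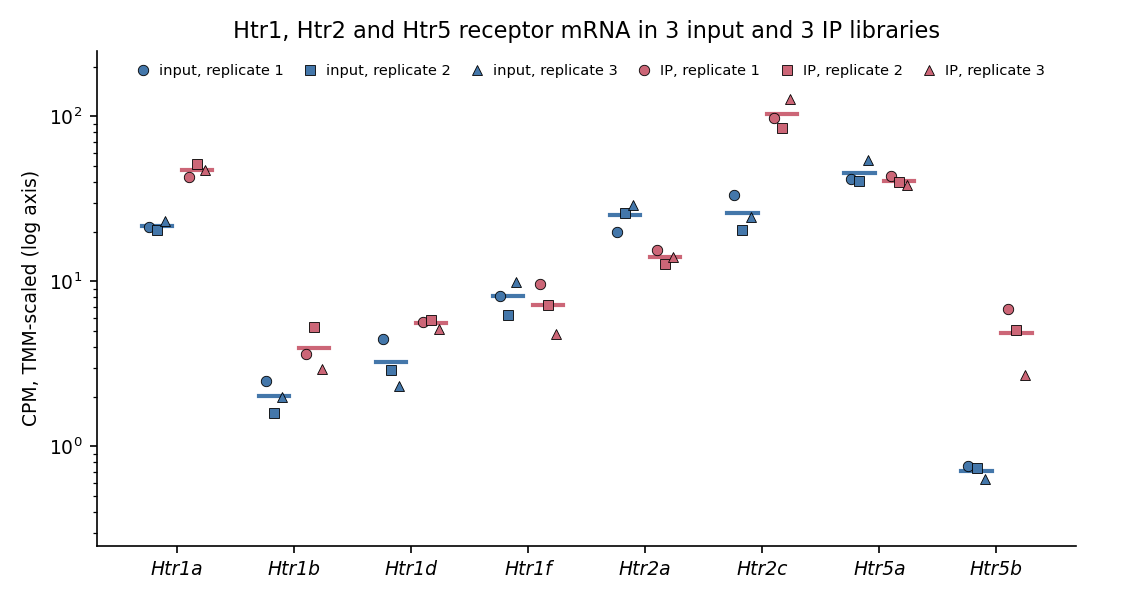
TMM-scaled CPM (log axis) of the 8 receptors in each of 3 input (blue) and 3 IP (red) libraries, with the symbol giving the replicate and a line the mean of 3. Htr1a, Htr2c and Htr5b have all IP libraries above all inputs by a wide gap, Htr2a has all IP libraries below, and Htr1f and Htr5a overlap.

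Htr1a encodes the main inhibitory serotonin receptor of forebrain pyramidal cells and the autoreceptor of raphe neurons. It was measured at 21.4, 20.5 and 23.3 CPM in input replicates 1 to 3 and at 43.1, 51.2 and 47.0 CPM in IP replicates 1 to 3. Every IP library was above every input, and the spread within each group was small. The mean rose from 21.8 ± 1.45 to 47.1 ± 4.05 CPM (SD, n = 3), a log2 fold change of 1.11 (SE 0.12, adjusted p = 2.9e-05, edgeR), with a 95% interval from 1.80-fold to 2.61-fold. Within lanes 1, 2 and 3 the log2 ratio was 1.01, 1.32 and 1.01. Among all tested genes, 4.36% had a larger log2 fold change. The gene (ENSMUSG00000021721) lies on chromosome 13 at 105443639 to 105448122, plus strand, with no overlapping gene in GENCODE M21 (GRCm38). The serotonin transporter gene Slc6a4, which defines raphe neurons, had 0 reads in all 6 libraries, and of the 3 tested serotonin neuron markers 0 were higher and 1 was lower. Hippocampal neurons also contain Htr1a, and the summed level of their 7 markers was 99.0, 258 and 79.1 CPM in IP replicates 1 to 3 against 34.6 to 57.7 CPM in input. Most of it was Prox1, at 78.1, 192 and 69.3 CPM in these IP libraries, and 4 of the 7 markers were not called. That sum and Htr1a were both highest in IP replicate 2, and the part of hippocampal RNA in the Htr1a value was not tested. Without IP replicate 2 the log2 fold change of Htr1a was 1.06 (adjusted p = 8.5e-05, edgeR).

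Htr1b and Htr1d encode the presynaptic receptors that restrain transmitter release from axon terminals, and both were sparse. Htr1b had 2.48, 1.59 and 1.99 CPM in input and 3.62, 5.31 and 2.93 CPM in IP, from 80 to 370 reads per library. The groups did not overlap, but IP replicate 2 stood above the other IP libraries. The mean rose from 2.02 ± 0.445 to 3.95 ± 1.22 CPM (a log2 fold change of 0.97, SE 0.36, adjusted p = 0.043, edgeR), and the within-lane log2 ratios were 0.55, 1.74 and 0.56. With lane as a replicate block the call was lost (0.94, adjusted p = 0.067). It was also lost when genes needed 1 CPM or more in 3 libraries (adjusted p = 0.054) and without input replicate 1 (0.051), input replicate 2 (0.15), input replicate 3 (0.10) or IP replicate 2 (0.16). IP replicate 2 also had the highest summed level of 7 hippocampal neuron markers, 258 CPM against 99.0 and 79.1 CPM in IP replicates 1 and 3 and 34.6 to 57.7 CPM in input. Prox1 made up most of that sum, with 192 CPM in IP replicate 2. Of these 7 markers 3 were higher, 0 lower and 4 not called, and the part of hippocampal RNA in the Htr1b value was not tested. An antisense gene, D430036J16Rik, overlaps an exon of Htr1b on chromosome 9. The strand setting of the counting is not given in the sources used here. Reads matching several genes, 8.99% of listed reads in input and 1.82% in IP, were counted for no gene. Reads of the shared part may thus be missing from Htr1b. Htr1b (ENSMUSG00000049511) spans 81628291 to 81633828 on the minus strand. D430036J16Rik had 7.08, 4.95 and 6.96 CPM in input and 12.2, 5.95 and 5.58 CPM in IP, with its maximum in a different library than that of Htr1b.

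Htr1d had 4.50, 2.88 and 2.33 CPM in input and 5.65, 5.85 and 5.17 CPM in IP. The IP libraries lay close together, whereas input replicate 1 approached them. The mean rose from 3.24 ± 1.12 to 5.56 ± 0.349 CPM (a log2 fold change of 0.78, SE 0.30, adjusted p = 0.0499, edgeR), and the within-lane log2 ratios were 0.33, 1.02 and 1.15. This call stood at the threshold and was lost with relative log expression (RLE) scaling (adjusted p = 0.057), with the same stricter filter (0.063), and without input replicate 2 (0.16), input replicate 3 (0.16), IP replicate 1 (0.078), IP replicate 2 (0.086) or IP replicate 3 (0.054). Htr1d (ENSMUSG00000070687) lies on chromosome 4 at 136423524 to 136444398, plus strand.

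Htr1f, the remaining Gi/o-coupled Htr1 gene, had 8.17, 6.26 and 9.87 CPM in input and 9.58, 7.17 and 4.79 CPM in IP. The 2 groups overlapped, and the highest input and the lowest IP value both came from lane 3. The means were 8.10 ± 1.80 and 7.18 ± 2.39 CPM (a log2 fold change of -0.18, SE 0.27, adjusted p = 0.63, edgeR). The 95% interval, 0.585-fold to 1.34-fold, leaves room for a moderate change either way. The within-lane log2 ratios were 0.23, 0.20 and -1.04. Htr1f (ENSMUSG00000050783) lies on chromosome 16 at 64924729 to 65105854, minus strand.

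The Gq-coupled receptors moved in opposite directions. Htr2c, the receptor best known from the choroid plexus and from subsets of deep-layer and subcortical neurons, had 33.2, 20.6 and 24.4 CPM in input and 98.4, 84.7 and 127 CPM in IP. The lowest IP value was more than any input by a wide gap, although the libraries of each group varied by over 20% around their mean (coefficients of variation 24.7% in input and 21.1% in IP). Its mean rose from 26.1 ± 6.43 to 104 ± 21.9 CPM (a log2 fold change of 1.99, SE 0.19, adjusted p = 9.1e-06, edgeR), with a 95% interval from 2.998-fold to 5.28-fold. Within lanes the log2 ratio was 1.57, 2.04 and 2.38, and only 122 of 16506 tested genes (0.739%) had a larger log2 fold change. Htr2c was also the best counted of the 8, with 23540 reads over the 6 libraries. The gene (ENSMUSG00000041380) spans 146962513 to 147197277 on the X chromosome, plus strand.

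Choroid plexus contains very high Htr2c, so its markers were set beside this value. The defining transcript Ttr, a thyroid hormone carrier, had 12, 31 and 4 reads in input and 0, 4 and 0 reads in IP, and Folr1 had 4, 0 and 0 reads in input and 0 in each IP. Of 10 listed markers 5 were tested, of which Clic6, Kl and Sostdc1 were higher and Kcnj13 was lower in IP. The summed level of all 10 was 9.95 to 11.9 CPM in input and 16.5 to 28.1 CPM in IP. Markers of striatal projection neurons, which also contain Htr2c, summed to 517 to 610 CPM in input and 1314 to 1782 CPM in IP. Of these, 11 of 12 were higher and 1 was lower, Rgs9, with means of 70.2 CPM in input and 26.1 CPM in IP. The part of striatal neurons in the Htr2c value was not tested. That sum was highest in IP replicate 1 and Htr2c in IP replicate 3, and the order of 3 libraries cannot show a source.

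Htr2a, the receptor through which serotonergic hallucinogens act on cortical pyramidal cells, had 20.0, 26.1 and 29.2 CPM in input and 15.6, 12.7 and 14.0 CPM in IP. All IP libraries were below all inputs, and the closest values were the 2 libraries of lane 1. The mean fell from 25.1 ± 4.66 to 14.1 ± 1.44 CPM (a log2 fold change of -0.83, SE 0.17, adjusted p = 0.0019, edgeR), with a 95% interval from 0.434-fold to 0.725-fold. Within lanes the log2 ratio was -0.36, -1.04 and -1.06. Layer 4 markers, of which Rorb was the most abundant, summed to 293 to 389.8 CPM in input and 32.8 to 45.8 CPM in IP. Layer 2/3 markers summed to 122 to 133 and 90.9 to 105 CPM, and layer 6b markers to 19.4 to 26.8 and 8.09 to 15.97 CPM. Other layer lists rose: layer 5 pyramidal tract (200 to 226 and 459 to 494 CPM), near-projecting (123 to 132 and 245 to 298 CPM) and layer 6 corticothalamic (138 to 152 and 221 to 256 CPM). The part of any layer in the fall of Htr2a was not tested. Htr2a (ENSMUSG00000034997) lies on chromosome 14 at 74640840 to 74709494, plus strand.

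The ratio between the Gq-coupled receptors differed between the groups in every library. Per kilobase of exon, Htr2c over Htr2a was 0.995, 0.474 and 0.504 in input and 3.80, 4.01 and 5.47 in IP. The groups did not overlap, and the lowest IP ratio was well above the highest input ratio. Htr2c has retained-intron transcripts in the annotation, which lengthen its summed exons to 9328 bases against 4883 for its longest coding transcript. With the latter length the ratio was 1.90, 0.905 and 0.962 in input and 7.25, 7.66 and 10.5 in IP. Htr2a was thus above Htr2c in input replicates 2 and 3 by either length, and only input replicate 1 changed sides with the length.

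Reads from 5 microRNA genes in introns of Htr2c were near 0. Mir1912 had 8, 2 and 0 reads in input, Mir764 had 0, 1 and 1, and Mir448, Mir1264 and Mir1298 had 0 reads. None of the 5 had a read in any IP library, and none of them touches an exon of Htr2c. Whether these libraries could capture mature microRNAs was not tested, so the counts do not measure their expression.

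Htr5a and Htr5b encode the least studied of these receptors. Htr5b had the highest estimated fold change of the 8, with an interval that overlapped that of Htr2c, and went from 0.763, 0.736 and 0.635 CPM in input to 6.76, 5.06 and 2.71 CPM in IP. All IP libraries were above all inputs, but they varied among themselves, with IP replicate 1 the highest and IP replicate 3 the lowest. The mean was 0.711 ± 0.0675 CPM in input, from 28 to 37 reads per library, and 4.85 ± 2.04 CPM in IP, from 185 to 377 reads. The log2 fold change was 2.77 (SE 0.42, adjusted p = 0.00028, edgeR), with a 95% interval from 3.60-fold to 12.8-fold. Within lanes it was 3.15, 2.78 and 2.09, and 35 tested genes (0.212%) had a larger one. Htr5b (ENSMUSG00000050534) lies on chromosome 1 at 121509842 to 121528465, minus strand, with a pseudogene, Gm8217, inside an intron. Habenula, a known site of Htr5b, has the marker Gpr151, which had 15 to 20 reads in input and 7 to 24 in IP. Of the 4 tested markers of habenula and thalamus 0 were higher and 1 was lower. All 7 listed markers summed to 19.9 to 23.0 CPM in input and 5.98 to 14.7 CPM in IP, with Gbx2 at 0 reads in every library. IP replicate 1, the highest for Htr5b, also had the highest sums of striatal and of habenula and thalamus markers among the IP libraries. The latter sum was mostly Tcf7l2, at 10.9, 5.72 and 3.50 CPM in IP replicates 1 to 3, so it says little of the other markers. The part of these tissues in the Htr5b value was not tested.

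Htr5a, the most abundant of the 8 in input, had 41.6, 40.8 and 54.2 CPM in input and 43.8, 40.1 and 38.6 CPM in IP. The groups overlapped, with only input replicate 3 standing apart. The means were 45.5 ± 7.50 and 40.8 ± 2.66 CPM (a log2 fold change of -0.16, SE 0.13, adjusted p = 0.36, edgeR). The 95% interval, 0.734-fold to 1.10-fold, does not reach a 1.5-fold rise or a 1.5-fold fall. Within lanes the log2 ratio was 0.07, -0.02 and -0.49. Htr5a (ENSMUSG00000039106) lies on chromosome 5 at 27842149 to 27855088, plus strand. The 95% intervals of Htr5a and Htr5b, the latter starting at 3.60-fold, did not overlap, and the ratio of Htr5a to Htr5b per kilobase was 19.6, 20.0 and 30.7 in input and 2.33, 2.85 and 5.13 in IP.

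**Figure D2:**
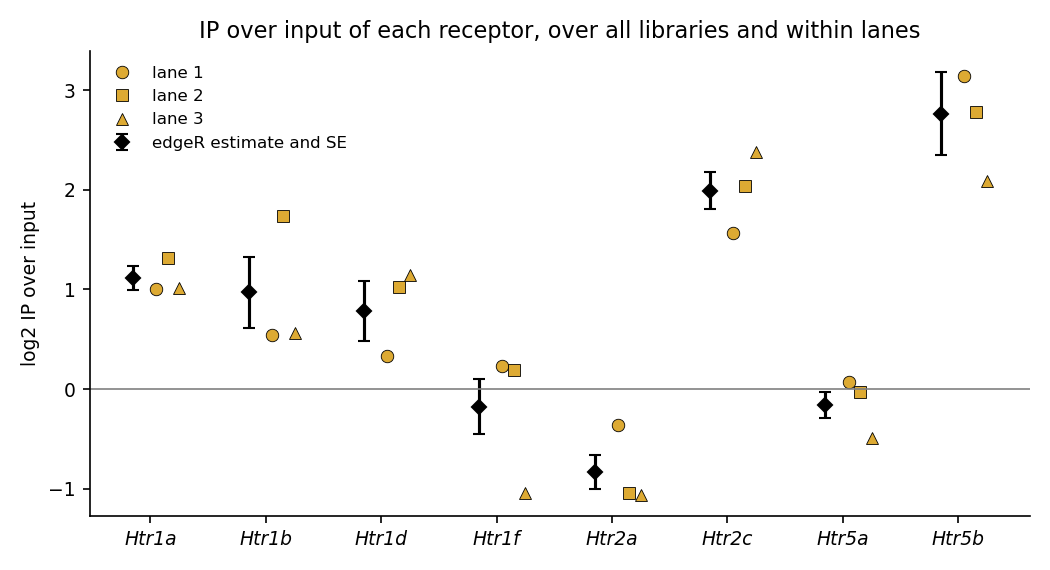
Log2 ratio of IP over input for each receptor: black diamonds are edgeR estimates with their standard error, and yellow symbols are the ratios within each of the 3 sequencing lanes, each from 1 IP and 1 input library. Htr1a, Htr1b, Htr1d, Htr2c and Htr5b were above 0 and Htr2a below 0 in all 3 lanes, whereas lane 3 set Htr1f apart at -1.04.

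The 8 genes are related in sequence, which could let reads fall between them. Over the 28 pairs, aligned coding sequences (GENCODE M21) were 56.4% (Htr1b and Htr2c) to 72.3% (Htr5a and Htr5b) identical. Htr2a and Htr2c were 65.9% identical and Htr1b and Htr1d 66.7%. The longest identical stretch of any pair was 26 bases, between Htr2a and Htr2c. No 2 of the genes were thus near-identical copies.

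Levels are comparable between genes only per length, and the following values are CPM per kilobase of summed exons. In input, Htr5a led at 8.47 ± 1.39 (SD, n = 3), above every library of the next gene. Htr1a at 4.85 ± 0.324, Htr2a at 4.48 ± 0.831, Htr1f at 3.14 ± 0.700 and Htr2c at 2.79 ± 0.690 followed, each overlapping its neighbour. Htr1d was lower at 1.01 ± 0.351, below all Htr2c values, and Htr1b at 0.427 ± 0.0943 and Htr5b at 0.367 ± 0.0349 overlapped at the bottom.

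In IP, Htr2c at 11.1 ± 2.34 and Htr1a at 10.5 ± 0.902 CPM per kilobase led and overlapped each other. Htr5a came next at 7.60 ± 0.494 and overlapped neither Htr1a nor Htr1f. Htr1f at 2.78 ± 0.929, Htr2a at 2.51 ± 0.257, Htr5b at 2.50 ± 1.05 and Htr1d at 1.74 ± 0.109 formed a run in which each overlapped the next. Htr1b was last at 0.837 ± 0.259. With the longest coding transcript as length, Htr2c stood at 5.34 in input and 21.2 in IP. By summed exons Htr2c moved from the fifth place to the first, whereas by the longest coding transcript its input mean was already above that of Htr1a.

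As shares of the summed level per length of the 8 receptors, Htr2c took 11.0% ± 2.74 in input and 28.05% ± 5.92 in IP, or 18.9% and 42.3% with the longest coding transcript. Htr1a took 19.0% ± 0.746 and 26.6% ± 3.03. In the opposite direction, Htr5a took 33.1% ± 2.34 in input and 19.2% ± 0.853 in IP, Htr2a 17.6% ± 3.06 and 6.34% ± 0.467, and Htr1f 12.2% ± 1.51 and 7.01% ± 2.20. Htr5b grew from 1.46% ± 0.265 to 6.30% ± 2.54 of the sum, while Htr1b (1.68% and 2.12%) and Htr1d (4.02% and 4.39%) took small shares in both. These shares sum to 100 in each library, so the growth of some receptors lowers the share of Htr5a and Htr1f without a change in their own level. By coupling, Htr2a and Htr2c together took 28.6% ± 1.13 in input and 34.4% ± 6.03 in IP, with overlapping libraries. The summed CPM of the 8 receptors was 132.5 ± 13.3 in input and 227 ± 15.4 in IP. Without Htr2c it was 106 ± 13.04 and 124 ± 7.18, so Htr2c carried most of the growth in CPM, which favours long genes. Per kilobase the sum was 25.5 ± 2.69 in input and 39.6 ± 1.15 in IP. In that measure Htr2c went from 2.79 to 11.1 and Htr1a from 4.85 to 10.5, so both carried much of the growth.

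**Figure D3:**
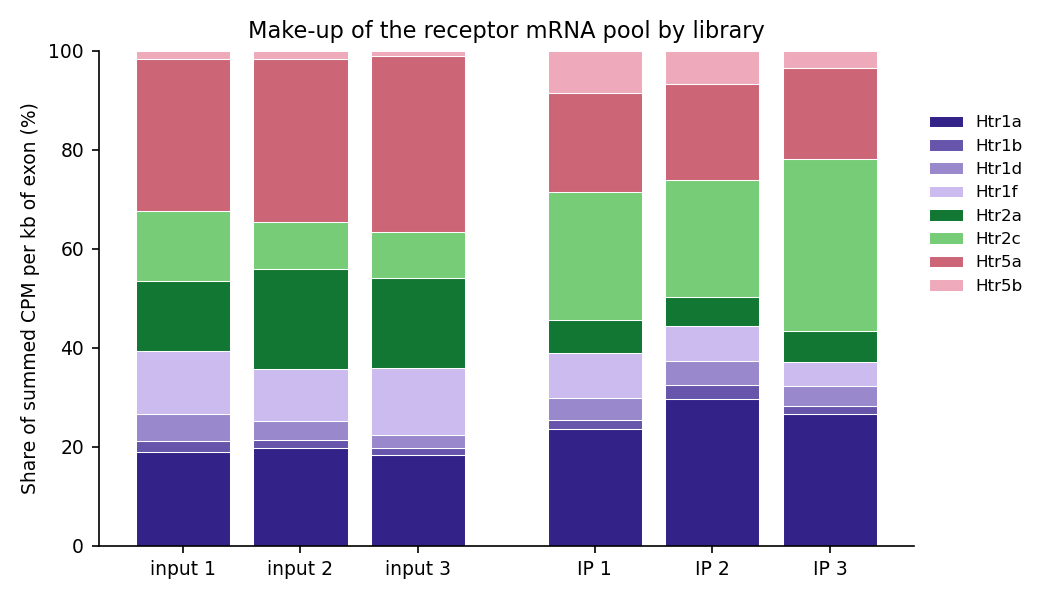
Stacked bars give the share (%) of each receptor in the summed CPM per kilobase of exon of the 8 receptors, 1 bar per library. Htr2c (light green) and Htr1a (dark purple) grow from 11.0% and 19.0% in input to 28.05% and 26.6% in IP, while Htr5a and Htr2a shrink.

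Set among all tested genes, whatever the level of those genes, Htr2c and Htr5b lay near the upper edge of the log2 fold changes. Htr1b (6.63% of tested genes with a larger log2 fold change) and Htr1d (11.1%) lay further in. Htr5a and Htr1f lay close to the middle, with 56.8% and 57.7% of genes above them, and Htr2a was below the middle, with 77.3% above it.

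**Figure D4:**
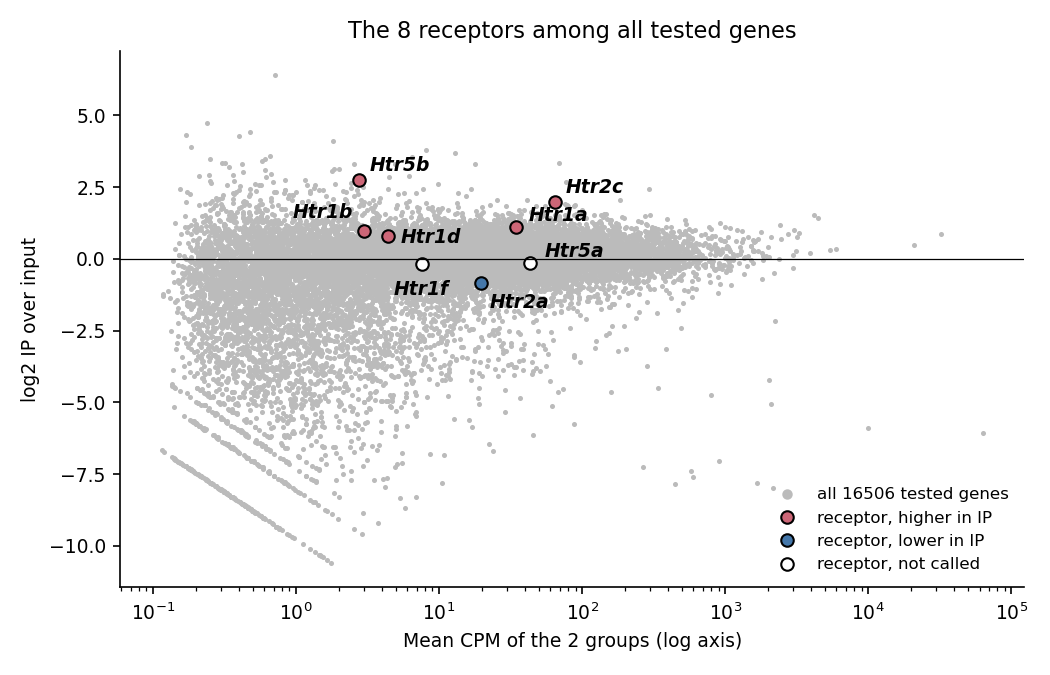
Log2 ratio of IP over input against mean CPM (log axis) for all 16506 tested genes (grey), with the 8 receptors marked by their call. Htr5b at 2.77 and Htr2c at 1.99 lie near the upper edge of the cloud, and Htr2a at -0.83 lies in its lower part.

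For each receptor, the genes with the most similar profile over the 6 libraries were found among about 9680 genes with a mean of at least 5 CPM, by the root mean square difference of mean-centred log2(CPM + 0.1). These are descriptions over 6 libraries that share their depth, lanes and groups. For Htr2c they were Nrsn2 (0.17), Calb2 (0.19) and Ap1s2 (0.19), which rose by 2.04, 2.19 and 1.88 on the log2 scale. Those of Htr1a were Tmem150c (0.06), Mapre3 (0.06) and Fam210b (0.06), with log2 fold changes of 1.12, 1.05 and 1.10. Htr5b had its nearest profiles in Npy2r (0.35), a neuropeptide Y receptor gene, and in the neuropeptide genes Tac1 (0.37) and Penk (0.38), which are also on the striatal marker list. The likeness for Htr5b was thus looser than for any of the other 7 receptors. Zfp521, Rrbp1 and Ano6 were nearest to Htr2a, Mrpl1, Pip5k1b and Fam188a to Htr1b, and Tsen34, Ndufb2 and Cnpy2 to Htr1d. Saal1, Lrrc75b and Mex3d were nearest to Htr1f, and Cnst, Jakmip3 and Snap29 to Htr5a.

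The other serotonin receptor genes gave 3 higher, 1 lower and 1 not called of the 5 tested. Htr4, the gene that drives the tag, rose from 7.88 ± 0.265 to 19.9 ± 2.36 CPM (a log2 fold change of 1.34, adjusted p = 5.7e-05, edgeR), which is less than the rise of Htr2c and close to that of Htr1a. The difference between these rises was not tested. Htr3a, an ion channel subunit of superficial interneurons, rose from 2.80 ± 1.001 to 7.97 ± 3.76 CPM (1.52, adjusted p = 0.0074), but hardly within lane 1 (0.19). Htr7, Gs-coupled, rose from 5.44 ± 0.616 to 8.39 ± 0.762 CPM (0.63, adjusted p = 0.029), and this call was lost without input replicate 1, input replicate 3 or IP replicate 2, with adjusted p up to 0.085. Htr2b, the third Gq-coupled receptor, was nearly absent, at 25, 56 and 27 reads in input and 15, 5 and 1 in IP (-2.73, adjusted p = 0.036). Its call was lost without any 1 of 5 of the 6 libraries (adjusted p up to 0.14), and it overlaps Psmd1 on the opposite strand. Htr6 did not pass (-0.30, adjusted p = 0.76), and Htr3b had 0 to 4 reads per library.

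The signalling partners of the receptors were read from 7 lists with 50 tested genes, of which 19 were higher, 10 lower and 21 not called, with a median log2 fold change of 0.24 against -0.02 over all tested genes. These counts stand beside 21.3% higher and 23.4% lower among all tested genes. Of 5 Gi/o alpha subunits 4 were higher and 0 lower, all by little, and with RLE scaling 3 were higher and 1 lower. With at least 1 CPM required in 3 libraries 2 were higher and 1 lower, and 2 were higher without input replicate 2, input replicate 3 or IP replicate 3. Gnao1, the most abundant, rose from 1520 ± 70.4 to 1854 ± 63.2 CPM (0.29, adjusted p = 0.0089) and Gnaz from 64.8 ± 6.44 to 99.3 ± 6.78 CPM (0.61, adjusted p = 0.00065), both under all alternatives. Gnai1 (0.26, adjusted p = 0.027) and Gnai2 (0.30, adjusted p = 0.040) were less stable, with adjusted p up to 0.14 and 0.13. Gnai3 did not pass (-0.26, adjusted p = 0.066), but RLE scaling, under which Gnai2 was not called, called it lower. Of 3 tested Gq alpha subunits 0 passed: Gnaq had 680 ± 15.8 and 621 ± 102 CPM (-0.13, adjusted p = 0.35), Gna11 79.8 ± 0.884 and 96.3 ± 12.2 CPM (0.27, adjusted p = 0.054), and Gna14 was under 1 CPM. Gnaq passed as lower without IP replicate 2 (adjusted p = 0.024). Gna11 passed as higher in 5 alternatives with adjusted p down to 0.015, among them the replicate block (0.26, adjusted p = 0.042). Gna15 had 0 reads in IP.

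Of 13 tested G protein beta and gamma subunits 6 were higher and 3 lower. Gng7, the gamma subunit abundant in striatal neurons, rose from 74.3 ± 8.40 to 205 ± 23.8 CPM (1.46, adjusted p = 2.3e-06), Gng3 from 369 ± 12.4 to 755 ± 82.9 CPM (1.03, adjusted p = 6.9e-06) and Gnb5 from 80.6 ± 3.68 to 150 ± 18.4 CPM (0.90, adjusted p = 4.4e-05). Gng12 fell from 87.3 ± 5.40 to 43.1 ± 3.66 CPM (-1.02, adjusted p = 1.9e-05). Of the other calls, Gng2 (0.54) and Gng11 (-3.63, 2.998 CPM in input) held under all alternatives, whereas Gng4, Gng5 and Gng10 each lost theirs in at least 3. Among GIRK channels, Kcnj6 fell from 77.8 ± 7.39 to 47.0 ± 9.54 CPM (-0.73, adjusted p = 0.0015), and Kcnj3, the most abundant, had 166 ± 7.07 and 180.4 ± 11.0 CPM (0.12, adjusted p = 0.28). Kcnj9 rose from 50.2 ± 3.41 to 66.2 ± 12.2 CPM (0.40, adjusted p = 0.031), a call lost without any 1 of 5 of the 6 libraries, and Kcnj5 did not pass (0.47, adjusted p = 0.63).

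Downstream of Gq, 3 of 12 genes were higher and 3 lower. Prkce, a protein kinase C, rose from 586 ± 27.2 to 822 ± 101 CPM (0.49, adjusted p = 0.0016). Plcb1, the main cortical phospholipase C of this pathway, rose from 403 ± 31.3 to 478 ± 20.99 CPM (0.25, adjusted p = 0.035), but lost the call in 6 of 13 alternatives. Itpr2, a calcium release channel typical of astrocytes, fell from 9.38 ± 1.03 to 1.44 ± 0.690 CPM (-2.70, adjusted p = 6.7e-05) and Plcb3 from 2.53 ± 0.285 to 0.676 ± 0.0849 CPM (-1.90, adjusted p = 0.0043), beside astrocyte markers whose sum was 259 to 264 CPM in input and 12.1 to 16.6 CPM in IP. Prkcd also fell (-1.41, adjusted p = 0.030), with adjusted p up to 0.15 when single libraries were left out. Prkcb, the most abundant of this list, had 2373 ± 245 and 2369 ± 69.3 CPM (-0.0025, adjusted p = 0.98).

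Receptor kinases and arrestins switch off active receptors, and 3 of 7 were higher and 2 lower. Arrb2 rose from 18.04 ± 2.40 to 30.9 ± 2.39 CPM (0.78, adjusted p = 0.0011), and the more abundant Arrb1 had 260.5 ± 23.4 and 223 ± 12.1 CPM (-0.23, adjusted p = 0.064), which passed as lower in 4 alternatives, among them RLE scaling and the replicate block (-0.22, adjusted p = 0.034). Of the kinases, Adrbk1 (0.55) and Grk6 (0.80) rose and Adrbk2 (-0.68) and Grk5 (-0.56) fell, and of these 4 calls only that of Grk5 was lost in any alternative. The editing enzyme gene Adar rose from 79.3 ± 4.62 to 112 ± 12.2 CPM (0.50, adjusted p = 0.0022), and Adarb2, whose product is not known to edit, from 23.4 ± 2.82 to 39.8 ± 4.12 CPM (0.77, adjusted p = 0.00082). Adarb1, the enzyme of several Htr2c sites, had 153 ± 12.5 and 175 ± 3.89 CPM (0.19, adjusted p = 0.10). Mpdz, a scaffold that binds Htr2c, was lower (-0.48, adjusted p = 0.018), a call lost without any 1 of 4 libraries, and Dlg4 (-0.13, adjusted p = 0.27) and the Htr1b partner S100a10 (-0.15, adjusted p = 0.57) did not pass.

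**Figure D5:**
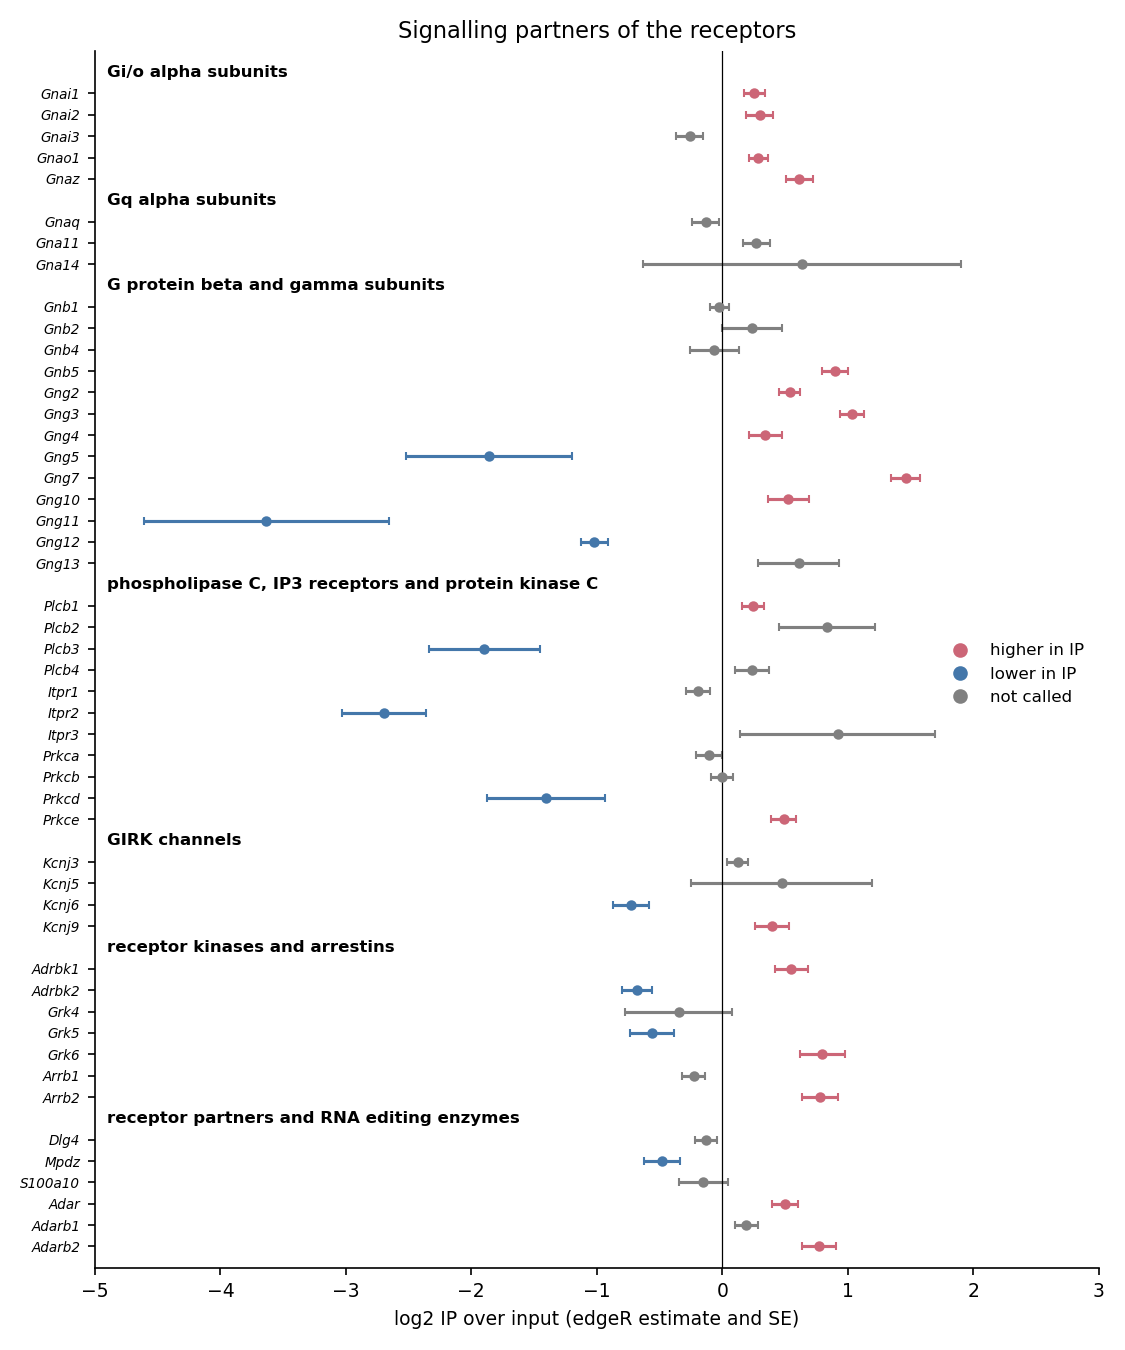
Log2 ratio of IP over input with its standard error (edgeR) for tested signalling genes of the 7 lists (all but 1), coloured by call. Gi/o alpha subunits sit slightly above 0 except Gnai3 at -0.26, while Gng7 at 1.46 is the highest called gene and Gng11 at -3.63 the lowest.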

How the data were processed

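Cortical input and TRAP RNA (IP) of adult Htr4-EGFP/Rpl10a ES1299 mice was sequenced in 3 libraries each, grouped by title. The authors deposited unnormalized counts per gene symbol. STAR 2.0.0e, HTSeq and the build mm10 are named in the submitters' processing notes. The sources used here do not give the HTSeq version, strand setting or annotation. Rows that name no gene (outside genes, several genes, several places, unknown) entered neither library sizes nor tests. Reads aligned to several places took 22.4% ± 1.21 of the input and 34.4% ± 1.43 of the IP rows (SD, n = 3).

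The 8 receptors and all gene and marker lists were chosen with earlier results of these data known. The main test was edgeR 4.0.16 (R 4.3.3), quasi-likelihood, with TMM scaling, filterByExpr and a group term, on all genes, with Benjamini-Hochberg adjustment over 16506 tested genes, two-sided, at 0.05. It was tested on simulated data with 200 changed genes. CPM values are mean ± SD, scaled by TMM, and intervals and floors cover no more than the spread or counting error of these libraries. Named genes are the receptors, any gene of the signalling lists, the 2 most abundant markers and those at 0 of each marker list, and the 3 most alike genes of each receptor; other markers named were chosen after their values were seen. Of the signalling lists, 1 gene is counted but not reported here. Exon lengths come from GENCODE M21 and promoters from RefSeq.

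Chi-square per degree of freedom between libraries of a group was 22.0 to 65.2, so none was a copy. In the labels the replicate number is the lane, shared by 1 input and 1 IP, so the numbers pair the libraries by lane. Deviations of same-numbered libraries correlated at 0.0872, 0.0608 and 0.0431, against -0.0566 to 0.00144 for other pairs between the groups. Alternatives were DESeq2 1.42.0, limma-voom (limma 3.58.1), RLE size factors, total gene reads, no filter, at least 1 CPM in 3 libraries, lane as a replicate block, leaving out each library, and for levels the longest coding transcript. With 3 against 3 libraries an exact permutation test cannot go below 0.1, so none was used for single values.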

Additional observations from a re-analysis of the deposited data

How the results depend on the processing

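The log2 fold changes of Htr1a (1.06 to 1.21), Htr2a (-0.95 to -0.70), Htr2c (1.82 to 2.22) and Htr5b (2.46 to 3.06) kept their direction and call in the main fit and all 13 alternatives. Htr1d was 0.76 with RLE size factors and 0.74 with at least 1 CPM in 3 libraries, and Htr1b 0.92 with that filter and 0.94 with the replicate block, all no longer called. That filter left 3 receptors called higher. When each library was left out in turn, Htr1b ranged from 0.71 to 1.17, Htr1d from 0.61 to 1.11, Htr1f from -0.43 to 0.054 and Htr5a from -0.24 to 0.00062, and 3 to 4 receptors were called higher. Htr1f turned positive without input replicate 3 (0.0070) and without IP replicate 3 (0.054), and Htr5a without input replicate 3 (0.00062), all far from a call. Of the 55 tested genes of the signalling and other receptor lists, 16 to 19 were then higher (22 with all libraries) and 6 to 10 lower (11 with all libraries), with fewer samples in each such fit. Pairing by lane in the replicate block changed no call of the receptors but that of Htr1b, and among the list genes those of Gna11 and Arrb1 alone. Scalings moved the median of all tested genes to -0.04 (RLE) and 0.08 (total reads). Depth limits Htr5b in input, at 28 to 37 reads per library, and Htr2b. The causes of these changes were not tested.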
